A study of Mus musculus with 19 samples.

Results

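The cells described here were conventional dendritic cells type 2 (cDC2) carrying the lectin gene Cd209a, recovered from the Achilles tendon wound of mice with a burn and a tendon cut. A cell was a member when it had at least 500 genes, no more than 25% mitochondrial UMIs (unique molecular identifiers, each marking 1 captured RNA molecule), at least 2 UMIs of Cd209a, at least 5 of the MHC class II gene H2-Ab1, no more than 5 over the macrophage genes C1qa, C1qb and C1qc, and none of Xcr1, Clec9a or Ccr7. Members were thus chosen by their measured UMIs of 8 genes, whose levels are no finding. The rule found 817 members among 39541 cells that passed the gene and mitochondrial limits in 19 libraries. Of these 39541 cells, 2244 had a Cd209a UMI, 1321 had at least 2, 1178 also reached the H2-Ab1 minimum, 971 also stayed under the C1q limit, and 817 met every condition.

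The study followed heterotopic ossification (HO), the formation of bone in soft tissue, after a burn over 30% of the body surface and a cut through the Achilles tendon, and asked how inflammatory cells at the wound behave over time and under a peptide that activates CD47. Cells were freed with enzymes from the tendon site, strained and captured on the 10x Genomics 3' platform. The groups were day 0 (4 libraries), day 3 (3 libraries), day 7 (4 libraries), day 21 (4 libraries) and p7N3 (4 libraries), the last from mice given the CD47-activating peptide p7N3 at 10 mg/kg intraperitoneally every day from 3 days before to 3 days after injury. The p7N3 libraries were harvested at day 7, except replicate 4, whose labels give no day. Labels of the 4 libraries numbered 4 named C57 and LysmCre/Tgfb1fx/fx mice, the latter lacking Tgfb1 in cells that express lysozyme M, without saying which library came from which genotype. The day 0 labels name the burn, whereas the study's text describes day 0 as uninjured.

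Conventional dendritic cells take up antigen in tissues and present it to T cells. They arise from bone marrow precursors that need the receptor Flt3, and fall into cDC1, which depend on Irf8 and Batf3, and cDC2, which are marked by Sirpa, Irf4 and C-type lectins such as Clec10a and Mgl2. Cells with Cd209a overlap in markers with dendritic cells that derive from monocytes, and neighbouring macrophages and monocytes share many of their genes.

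Depth differed among libraries. The kept cells held 3019467 UMIs in day 0 replicate 2, the lowest, and 39870492 in day 7 replicate 2, the highest. Members numbered 8, 4, 4 and 6 in the day 0 libraries, 49, 30 and 32 at day 3, 111, 78, 68 and 66 at day 7, 9, 10, 4 and 7 at day 21, and 74, 110, 90 and 57 under p7N3. Levels are given as CPM, a gene's UMIs summed over the members of a library and scaled to a total of 1000000. With few members at day 0 and day 21, 3 UMIs corresponded to 47.0 to 129 CPM at day 0 and to 28.3 to 64.7 CPM at day 21, against 3.84 to 10.1 CPM in the other groups. Median UMIs per member were 9772 to 9919.5 at day 3, higher than the 4051.5 to 6880 at day 7 and the 5088 to 6777 under p7N3. No cell barcode was shared by members of different libraries, while 975 of the 38554 distinct kept barcodes occurred in more than 1 library.

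The thresholds cut through a range of cells. The 99 members with exactly 2 Cd209a UMIs held 547 CPM of Klrd1 and 669 CPM of Apoe, and the 189 cells with 1 UMI that met every other condition held 404 CPM of Klrd1 and 1267 CPM of Apoe. At the C1q limit, 58 members with 4 or 5 UMIs held 300 CPM of Klrd1, and 26 cells just outside, with 6 or 7, held 209 CPM. At the H2-Ab1 minimum, the 27 members with 5 to 9 UMIs held 435 CPM of Klrd1 and the 50 cells with 0 to 4 held 554 CPM. Cells on both sides of the Cd209a and H2-Ab1 minimums thus carried Klrd1. Mgl2 was at 6.40 CPM, from 1 UMI, in the H2-Ab1-poor members, against 178 CPM, from 124 UMIs, in the Cd209a-poor members.

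Members were set beside MHC class II high macrophages, 5371 cells of the same libraries with the same H2-Ab1 minimum and more than 5 C1q UMIs, as a description without a test, since the rule separated them. The levels below are means over the 12 libraries with at least 10 cells of each kind. Cd7, a surface receptor of lymphoid and some dendritic cells, was at 553 CPM in members and 3.32 CPM in macrophages. Klrd1, which encodes CD94, a lectin-like receptor best known from natural killer (NK) cells, was at 574 against 5.51 CPM. The MHC class II modulator H2-Oa was at 141 against 2.19 CPM, and the lectin gene Cd209d, a neighbour of Cd209a in the same family, at 238 against 5.36 CPM. Flt3, the receptor that dendritic precursors need, was at 110 against 2.79 CPM. These genes, with Siglecg, P2ry10, Ffar2, Pkp3, Klrb1b, Klrk1, Bcl11a, Itgb7 and Ifitm1, were higher in members in 12 of 12 libraries. Ly6c2 monocytes (784 cells) held 215 CPM of Cd7 and 72.9 CPM of Klrd1, and cDC1 (221 cells, means over 8 libraries) held 168 CPM of Klrd1, 184 CPM of Flt3 and 131 CPM of Cd7.

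**Figure D1:**
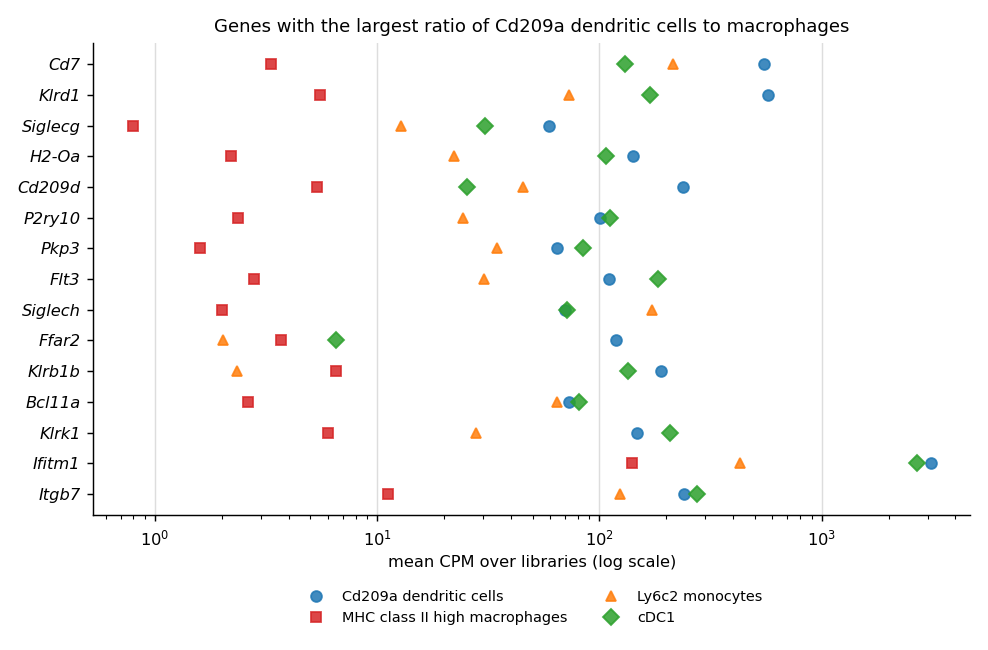
Mean CPM (log scale, horizontal) of the 15 genes with the highest ratio of Cd209a dendritic cells to MHC class II high macrophages, with Ly6c2 monocytes and cDC1 added. Cd7 lies at 553 CPM in the dendritic cells and 3.32 CPM in the macrophages, while Klrk1 and Flt3 lie higher in cDC1 (207 and 184 CPM) than in the Cd209a dendritic cells (147 and 110 CPM).

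In the other direction, the lipid carrier Apoe was at 701 CPM in members and 19957 CPM in macrophages, the membrane protein Ms4a7 at 21.2 against 1064 CPM, the lipid receptor Trem2 at 27.1 against 425 CPM and the folate receptor Folr2 at 4.57 against 152 CPM. Markers of lymphoid cells were low over the libraries with at least 10 members, apart from the receptors named above. Among the 7 NK genes Eomes had no UMI in any member, Ncr1 and Prf1 had 3 or fewer, and the most abundant, Gzma, reached 12.8 CPM, with a sum of 137 CPM in p7N3 replicate 4, the highest. Of the B cell genes, Ms4a1 and Pax5 had no UMI and Ebf1 reached 20.2 CPM. The most abundant T cell gene, Lat, reached 2.46 CPM, and T cell genes summed to 113 CPM in day 21 replicate 4, a library of 7 members.

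The cDC2 identity list held 18 genes, and each had at least 1 UMI in members. The most abundant was Napsa, an aspartic protease, at 746 CPM as the mean over the 12 libraries with at least 10 members. Monocyte genes were present too, with a UMI for each of the 9 on the list. Plac8, the most abundant of them, was at 909 CPM in members, against 4594 CPM in Ly6c2 monocytes, 785 CPM in cDC1 and 179 CPM in macrophages. Monocyte genes summed to 2547 CPM at day 3 and 2624 CPM at day 7, beside 3650 and 4707 CPM for the cDC2 list. Ly6c2 itself was seen in 44.1% of members at day 3 and 23.5% at day 7 (22.5% and 16.1% after thinning), and in 41.1% and 4.35% of stromal cells (4.40% and 0.765% after thinning). Whether members derived from monocytes was not tested. Flt3 had similar means in the groups, 121 ± 63.7 CPM at day 0 (SD, n = 4), 111 ± 19.7 at day 3 (n = 3), 110.3 ± 7.14 at day 7 (n = 4), 91.5 ± 21.0 at day 21 (n = 4) and 106 ± 22.9 under p7N3 (n = 4).

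Free RNA gives stray UMIs in droplet data, so shares of cells with a UMI are given beside those of 9785 stromal cells, which should lack most of these genes. Members had a median of 6213 UMIs, macrophages 7510 and stromal cells 14480. Flt3 was seen in 47.0% of members, 2.79% of macrophages and 0.450% of stromal cells. Klrd1 was seen in 72.6%, 4.21% and 1.94%, and Cd209d in 38.9%, 3.43% and 0.746%. Ccr2, the receptor that guides monocytes and some dendritic cells to inflamed tissue, was seen in 82.4% of members, 64.8% of macrophages and 6.66% of stromal cells, the last reaching 48.4% at day 3. The cDC2 factor Irf4 was seen in 11.6% of members, 3.02% of macrophages and 1.11% of stromal cells. After each cell was thinned to 2000 UMIs, Flt3 was seen in 20.9% of members and 0.0514% of stromal cells, and Klrd1 in 51.5% and 0.165%.

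Members were not uniform. A small set carried genes of plasmacytoid dendritic cells (pDC), the dendritic lineage that makes type I interferon. Over Siglech, Ccr9, Cox6a2, Klk1 and Ly6d, 732 members had no UMI, 41 had 1 to 4, and 44 (5.39%) had 5 or more, with a median of 30 and a maximum of 69. This division was chosen after the values were seen. The 44 pDC-marked members held 746 of the 1040 Irf8 UMIs (71.7%) and 9 of the 2300 Mgl2 UMIs. They did not lack Klrd1, which was seen in 84.1% of them against 71.9% of the others, and their median Cd209a count was 4 UMIs against 8. For these 44 cells the data go against the cDC2 name. Ccl17, a T cell attracting chemokine of mature cDC2, was concentrated further still, since 422 of its 527 UMIs came from 3 cells.

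The share of members among kept cells was 0.798%, 0.701%, 0.360% and 0.685% in the day 0 libraries, 2.49%, 1.40% and 1.89% at day 3, 3.40%, 2.18%, 1.85% and 2.27% at day 7, 0.586%, 1.10%, 0.423% and 0.358% at day 21, and 2.68%, 3.06%, 3.54% and 2.26% under p7N3. Every day 3, day 7 and p7N3 library lay above every day 0 and day 21 library. With members required to carry a Flt3 UMI, day 21 and day 7 overlapped (-0.742 points, exact permutation p = 0.0571). The means were 0.636% ± 0.190 (SD, n = 4) at day 0, 1.93% ± 0.545 (n = 3) at day 3, 2.43% ± 0.673 (n = 4) at day 7, 0.617% ± 0.337 (n = 4) at day 21 and 2.88% ± 0.547 (n = 4) under p7N3.

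In exact two-sided permutation tests over libraries, day 3 exceeded day 0 by 1.29 percentage points with p = 0.0571, the smallest value that 3 against 4 libraries allow, and day 21 was below day 7 by a difference of -1.81 points with p = 0.0286, the smallest that 4 against 4 allow. Adjusted over the 5 comparisons by the Benjamini-Hochberg method both became 0.143, so neither passed 0.05. Day 7 and day 3 overlapped (difference 0.498 points, exact permutation p = 0.400), as did p7N3 and day 7 (0.457 points, p = 0.286) and day 21 and day 0 (-0.0185 points, p = 0.914). With replicates 1 to 3 only, p7N3 and day 7 still overlapped (0.616 points, exact permutation p = 0.300). With members carrying UMIs of other lineages left out (at least 20 over S100a8 and S100a9 or over Col1a1, Col1a2 and Col3a1, or at least 2 of lymphoid genes), the share was 0.369% at day 21 and 0.636% at day 0 (-0.267 points, exact permutation p = 0.0571). With each cell thinned to 2000 UMIs and the gate lowered to match, day 7 lay above day 3 without overlap (0.814 points, exact permutation p = 0.0571).

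The first difference had the opposite sign with another denominator. Among cells with a UMI of the leukocyte gene Ptprc, members made up 5.08% ± 1.85 (SD, n = 4) at day 0, 2.21% ± 0.585 (n = 3) at day 3, 5.60% ± 0.990 (n = 4) at day 7, 3.98% ± 1.53 (n = 4) at day 21 and 5.90% ± 0.930 (n = 4) under p7N3. Day 21 and day 7 then overlapped (-1.62 points, exact permutation p = 0.171). Day 3 was lower than day 0 by a difference of -2.87 points and day 7 higher than day 3 by 3.39 points, each without overlap, with an exact permutation p of 0.0571 and an adjusted p of 0.143. A Ptprc UMI is likelier to be seen in a deeply sequenced cell, and kept cells had medians of 3414 to 4693 UMIs in the day 0 libraries and 10288 to 11186 at day 3. Of the kept cells, 155 of 1003 had a Ptprc UMI in day 0 replicate 1 and 1530 of 1967 in day 3 replicate 1. The part of depth in this denominator was not tested.

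**Figure D2:**
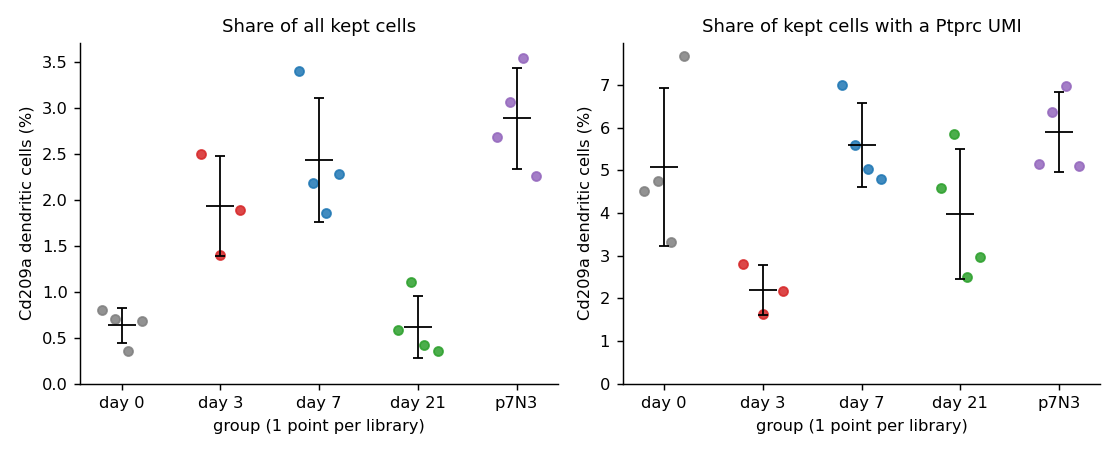
Share of Cd209a dendritic cells in each library (points) with the group mean and SD (black), as a percentage of all kept cells on the left and of kept cells with a Ptprc UMI on the right. On the left the 3 day 3 libraries (1.40% to 2.49%) lie above the 4 day 0 libraries (0.360% to 0.798%), and on the right the order of these groups is turned.

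Expression was compared between groups by summing members' UMIs within each library and testing with edgeR's quasi-likelihood test, with Benjamini-Hochberg adjustment over all genes tested; changes are on the log2 scale with their standard errors. Libraries needed at least 10 members, which held for day 3, day 7 and p7N3, and in day 21 for 1 library. The study describes its single-cell experiments as replicated to gauge variation between mice, while the labels do not tie libraries to mice, so p-values measure the spread between libraries.

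Between day 3 and day 7, 365 of 6946 genes passed an adjusted p of 0.05, which is 5.25% of those tested. Of them 130 were higher at day 7 (1.87% of those tested) and 235 lower (3.38%), and 4 were genes of the rule. The median change over all genes was 0.02. Without 1 day 3 library at a time, 171 (without replicate 1), 211 (without replicate 2) and 163 (without replicate 3) genes passed, and without day 7 replicate 1, 556 passed. Members at day 3 had deeper profiles than at day 7, and when each cell was thinned to 2000 UMIs before gating and summing, 99 genes passed, of which 73 were among the 365. The gate was lowered to match the thinned cells (Cd209a at least 1, H2-Ab1 at least 2, C1q at most 1), so the members differed as well as the depth. That alternative was chosen after seeing the data.

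The 10 largest rises among the named genes were C1qtnf3, Ccl17, Meg3, Mest, Itm2a, Aspn, Tnc, Mfap4, Postn and Atp1b1. Of these, the calls of Itm2a, Aspn, Postn and Atp1b1 held without each library, and the others were lost without at least 1. Stromal genes also summed higher at day 7, as given below. The lectin genes Mgl2 and Cd209d, outside those 10, were higher at day 7 too. Mgl2 (chr11:70130329-70137550, GRCm38, plus strand), a galactose-binding lectin of cDC2 and of alternatively activated macrophages, was at 57.8, 54.0 and 61.1 CPM in the day 3 libraries and at 563, 398, 669.9 and 348 CPM at day 7. Every day 7 library exceeded every day 3 library by a wide margin, with a log2 change of 3.01 ± 0.32 (SE) and an edgeR adjusted p of 3.73e-05. Its share of members with a UMI was 21.6% at day 3 and 38.4% at day 7, and 9.01% and 29.1% after thinning, against 2.69% and 1.04% of stromal cells, and 0.244% and 0.191% after thinning. Cd209d (chr8:3871824-3878555, GRCm38, minus strand) was at 59.8, 50.6 and 107 CPM at day 3 and 280.3, 386, 338 and 268 CPM at day 7, without overlap (2.06 ± 0.25, edgeR adjusted p = 1.11e-04). Cd209d was chosen for this comparison after its values were seen. The calls of Mgl2 and Cd209d held without each of the 7 libraries in turn.

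Clec10a (chr11:70156197-70170834, GRCm38, plus strand), the paralog next to Mgl2, was at 331, 283 and 339 CPM at day 3 and 494, 646, 661 and 373 CPM at day 7. The groups did not overlap and the change was smaller, 0.68 ± 0.18 with an edgeR adjusted p of 0.0316, and it did not pass without any 1 of the day 3 libraries or without day 7 replicate 2 or replicate 3 (adjusted p up to 0.137). Mgl2 and Clec10a are close paralogs, and reads shared between them could be split or dropped in counting. Of the 18 cDC2 identity genes 15 were tested, of which Mgl2, Clec10a and Ccl17 were higher and Klf4 lower (median change 0.24, against 0.02 over all genes). The Ccl17 call was lost without any 1 of the day 3 libraries (adjusted p up to 0.100).

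Of the receptors that were higher in members than in macrophages, Klrd1 and Flt3 did not pass. Klrd1 (chr6:129591782-129598775, GRCm38, plus strand) was at 462, 388 and 559 CPM at day 3 and 550.4, 557, 652 and 649 CPM at day 7, with overlap (0.27 ± 0.14, edgeR adjusted p = 0.278, normal 95% interval 0.01 to 0.54). Such an interval is narrower than the edgeR test implies. Flt3 was at 133, 101 and 97.8 CPM at day 3 and 104, 105, 119 and 114 CPM at day 7 (-0.12 ± 0.19, adjusted p = 0.802, interval -0.48 to 0.25). Of the cDC2 factors, Klf4 was lower at day 7 by a log2 change of -0.89 ± 0.22 (edgeR adjusted p = 0.0214), a call that 5 of the 7 left-out libraries ended, with adjusted p up to 0.112 (day 3 replicates 2 and 3 and day 7 replicates 2, 3 and 4).

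**Figure D3:**
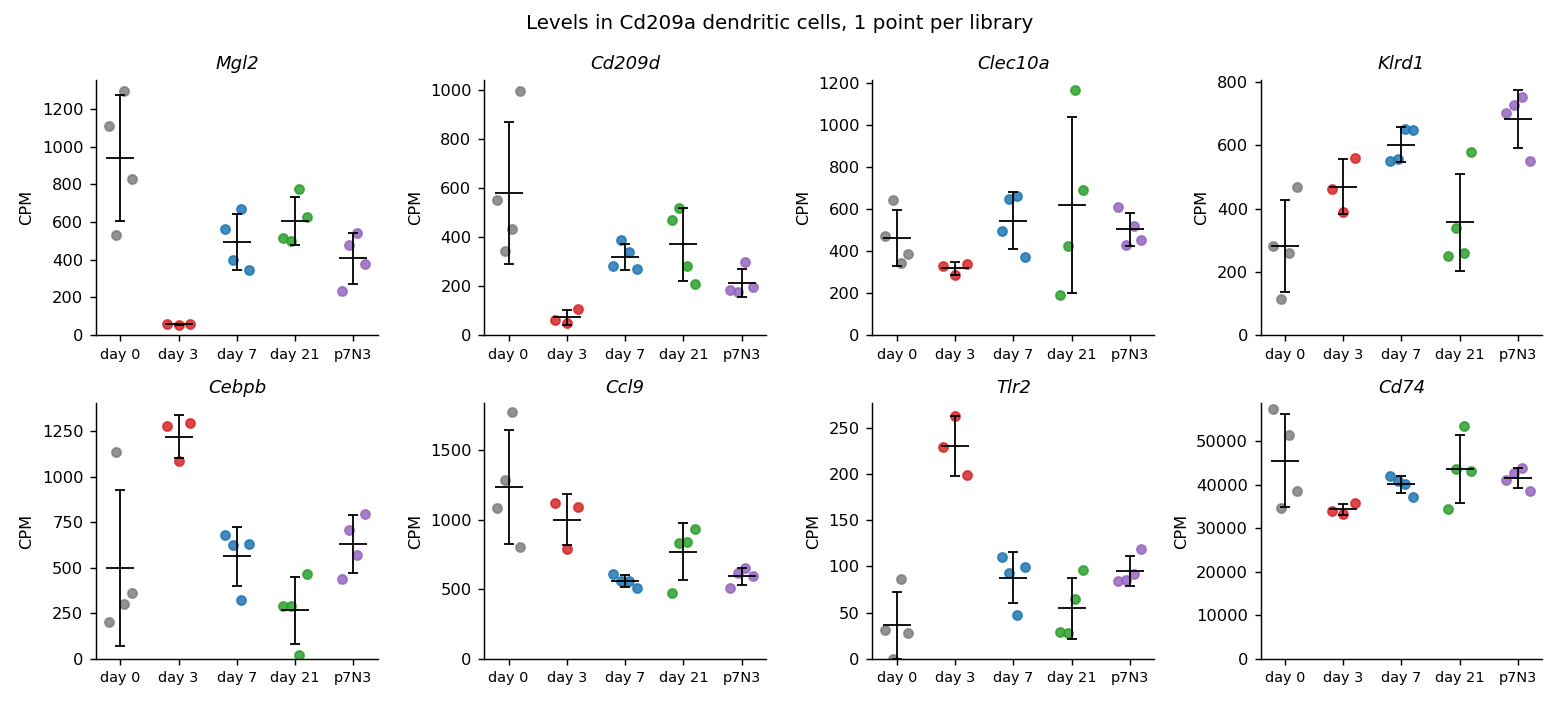
CPM of 8 genes in Cd209a dendritic cells, 1 point per library, with the group mean and SD (black). Mgl2 and Cd209d are low in the 3 day 3 libraries and higher in all others, Cebpb, Ccl9 and Tlr2 are higher at day 3 than at day 7, and Klrd1 overlaps between day 3 and day 7.

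Genes lower at day 7 included Cebpb, a transcription factor of inflammatory myeloid cells, and chemokines. Cebpb was at 1279, 1083 and 1293 CPM at day 3 and 677, 624, 320.1 and 629 CPM at day 7, without overlap (-1.18 ± 0.21, edgeR adjusted p = 0.00302). Ccl9, a chemokine for Ccr1-bearing myeloid cells, was at 1122, 786 and 1091 CPM at day 3 and 611, 555, 557 and 507 CPM at day 7, also without overlap (-0.92 ± 0.13, edgeR adjusted p = 4.68e-04). The neutrophil-attracting chemokine Cxcl2 was at 719, 604 and 853 CPM at day 3 and 431, 176, 124 and 156 CPM at day 7 (-1.72 ± 0.31, adjusted p = 0.00321). All day 7 libraries lay below all day 3 libraries, with day 7 replicate 1 nearest. Of 17 chemokines 13 were tested, of which Ccl9, Cxcl2 and Ccl6 were lower and Ccl17 higher (median -0.41), the latter lost without any 1 of the day 3 libraries. The Ccl6 call was lost with members carrying UMIs of other lineages left out, and when cells were thinned and the gate lowered.

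Among 20 cytokines 11 were tested, and Tnf and Tgfb1 were lower (median -0.46). Tnf was at 69.7, 81.0 and 85.6 CPM at day 3 and 32.0, 34.3, 50.4 and 19.97 CPM at day 7, without overlap (-1.31 ± 0.25, edgeR adjusted p = 0.00593). Il1b was at 2275, 3111 and 2399 CPM at day 3 and 1971, 2235, 1814 and 1985 CPM at day 7, without overlap but short of the threshold (-0.46 ± 0.15, adjusted p = 0.0880). An Il1b UMI was also seen in 97.6% of stromal cells at day 3 and 33.3% at day 7 (33.0% and 5.71% after thinning). The part of free RNA was not tested. Il12b, Il23a, Il27 and Lta, cytokines by which dendritic cells steer T cells, had 3 or fewer UMIs each in all members. Tgfb1, the growth factor that the study deleted in part of its mice, was at 301, 388 and 358 CPM at day 3 and 220.1, 299, 216 and 254 CPM at day 7, with 299 CPM at day 7 close below 301 CPM at day 3 (-0.57 ± 0.16, adjusted p = 0.0465). The Tgfb1 call was lost without each library but day 7 replicate 2, with adjusted p up to 0.179. The labels of day 7 replicate 4, at 254 CPM, do not say whether its mice lacked Tgfb1 in myeloid cells. Tgfbi, an extracellular protein induced by TGF beta, was at 1229, 999 and 825 CPM at day 3 and 671, 628, 474 and 611 CPM at day 7, without overlap (-0.85 ± 0.14, adjusted p = 0.00180).

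Of 20 lectins and pattern receptors 13 were tested, 5 were lower at day 7 and Mgl2 and Clec10a higher (median 0.15). Tlr2, a receptor for bacterial lipoproteins, was at 229, 263 and 199 CPM at day 3 and 110.1, 92.9, 47.4 and 99.9 CPM at day 7 (-1.42 ± 0.21, edgeR adjusted p = 9.23e-04). Clec4e, the lectin Mincle, was at 167, 155 and 174 CPM at day 3 and 67.8, 56.5, 26.7 and 55.9 CPM at day 7 (-1.69 ± 0.25, adjusted p = 8.95e-04). Neither gene's groups overlapped, and day 7 replicate 3 was the lowest library for both. Of 18 growth factor and cytokine receptors all were tested and 5 were lower (median -0.41), among them Tnfrsf1a, the main TNF receptor, at 221, 233 and 251 CPM at day 3 against 119, 113, 97.8 and 128 CPM at day 7 (-1.10 ± 0.16, adjusted p = 8.50e-04).

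The calls of Cebpb, Ccl9, Cxcl2, Tnf, Tgfbi, Tlr2, Clec4e and Tnfrsf1a held without each of the 7 libraries. At equal depth per cell, with the lowered gate, Ccl9, Cxcl2, Tnf and Tgfbi passed with the same sign, whereas Cebpb (-0.78, edgeR adjusted p = 0.0627), Tlr2 (-1.09, adjusted p = 0.0835), Clec4e (-1.20, adjusted p = 0.115) and Tnfrsf1a (-0.44, adjusted p = 0.584) kept their sign without passing. Mgl2 (2.54) and Cd209d (1.13, adjusted p = 0.0466) passed there too. Over the named genes that could be tested at equal depth, 27 of 66 passed and 0 changed sign. The part of depth in these differences was not tested further.

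The abundant MHC class II genes Cd74, H2-Aa and H2-Eb1 did not pass between day 3 and day 7 over all members. Cd74, the invariant chain that guides MHC class II molecules, was at 34092, 33199 and 35785 CPM at day 3 and 41998, 40914, 40206 and 37311 CPM at day 7. The groups did not overlap, yet the log2 change of 0.14 ± 0.07 did not pass (edgeR adjusted p = 0.255, unadjusted p = 0.0514). Its normal 95% interval, 0.01 to 0.27, is narrower than that test implies. H2-Aa (0.14 ± 0.08, adjusted p = 0.358) and H2-Eb1 (0.23 ± 0.09, adjusted p = 0.135) were also short of the threshold. With members carrying UMIs of other lineages left out, Cd74 (0.40, edgeR adjusted p = 5.97e-04), H2-Aa (0.43, adjusted p = 6.68e-04) and H2-Eb1 (0.53, adjusted p = 1.38e-04) passed as higher at day 7, and without pDC-marked members H2-Eb1 did (0.35, adjusted p = 0.0424). Of 14 MHC class II genes 13 outside the rule were tested, of which H2-DMb2, a peptide-loading chain, was higher and the protease Lgmn lower (median 0.20). H2-DMb2 was at 155, 152 and 144 CPM at day 3 and 265, 351, 243 and 242 CPM at day 7 (0.79 ± 0.17, adjusted p = 0.00950), and did not pass without day 3 replicate 3 (adjusted p = 0.0600) or at equal depth (0.64, adjusted p = 0.228). None of the 13 tested MHC class I genes passed (median 0.05), nor any of 24 interferon-stimulated genes (median 0.36). Among 21 cell cycle genes Tubb5 alone was higher (median 0.71), and that call was lost without any 1 library.

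RNA of other cell types differed between these time points. Neutrophil genes summed to 1880 ± 482 CPM at day 3 (SD, n = 3) and 164 ± 100.2 at day 7 (n = 4), with S100a8 the most abundant of 6, and in macrophages of the same groups they summed to 2393 and 358 CPM. S100a8 was at 1253, 688 and 969 CPM at day 3 and 47.4, 58.5, 184 and 37.9 CPM at day 7 (-3.79 ± 0.38, edgeR adjusted p = 2.85e-05 in the dendritic cells). Stromal genes summed to 867 ± 295 CPM at day 3 and 5771 ± 2482 at day 7, with Col1a1 the most abundant of 6. In macrophages the stromal sum went the other way, at 13171 and 5359 CPM. Col1a1 was at 173, 337 and 205 CPM at day 3 and 677, 2625, 1992 and 2417 CPM at day 7 (2.94 ± 0.39). Its change was 0.58 (edgeR adjusted p = 0.0980) with members carrying UMIs of other lineages left out, a filter that itself counts Col1a1 UMIs. The Col1a1 call was also lost with doublets removed. Macrophage genes summed to 1397 ± 85.5 CPM at day 3 and 869 ± 161 at day 7, with Apoe the most abundant of 10 outside the rule. All 9 monocyte genes were tested, of which Fn1 (2.17) was higher at day 7 and Ifitm6 (-1.40) and Chil3 (-4.75) lower (median -0.24). Fn1 did not pass with doublets removed or among members with a Flt3 UMI. Chil3 did not pass with DESeq2 or without day 3 replicate 3 (edgeR adjusted p = 0.0685). Ifitm6 did not pass at equal depth with the lowered gate. With the members that carried UMIs of other lineages left out, Mgl2 (3.16), Cd209d (2.10), Cebpb (-0.87), Ccl9 (-0.76), Cxcl2 (-1.17), Tnf (-1.24), Tlr2 (-0.99), Clec4e (-1.52), Tnfrsf1a (-1.16) and Tgfbi (-0.66) still passed, while Tgfb1 (-0.40, edgeR adjusted p = 0.188) and Klf4 (-0.43, adjusted p = 0.320) did not. Fn1, Ccl6, Col1a1, Col1a2 and Col3a1 did not pass there either. Over the genes named for this comparison, 46 passed with the same sign in that setting and 17 kept their sign without passing. The part of free RNA from such cells was not tested.

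Irf8, the factor that cDC1 and pDC need (chr8:120736358-120756694, GRCm38, plus strand), followed the pDC-marked members. It was at 102, 67.5 and 110.0 CPM at day 3, 232, 436, 332 and 236 CPM at day 7 and 203, 123, 107 and 87.1 CPM under p7N3. Day 7 lay above day 3 without overlap (1.62 ± 0.28, edgeR adjusted p = 0.00265), a call that held without each library and was lost among members with a Flt3 UMI (1.51, adjusted p = 0.0702). Without the 44 pDC-marked members Irf8 was at 58.7, 17.2 and 28.1 CPM at day 3, 49.1, 40.2, 16.4 and 33.5 CPM at day 7 and 43.2, 78.5, 85.4 and 87.1 CPM under p7N3. The change from day 3 to day 7 was then -0.05 with an adjusted p of 0.975. The marked members numbered 3 at day 3 and 31 at day 7, with 8, 10, 9 and 4 in the day 7 libraries, and 5, 2, 2 and 0 in the p7N3 libraries, 9 in all. Of 7 pDC genes all were tested between day 7 and day 3, and Cox6a2 passed (median 1.34), a call lost without any day 3 library or without day 7 replicate 2 or 3.

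**Figure D4:**
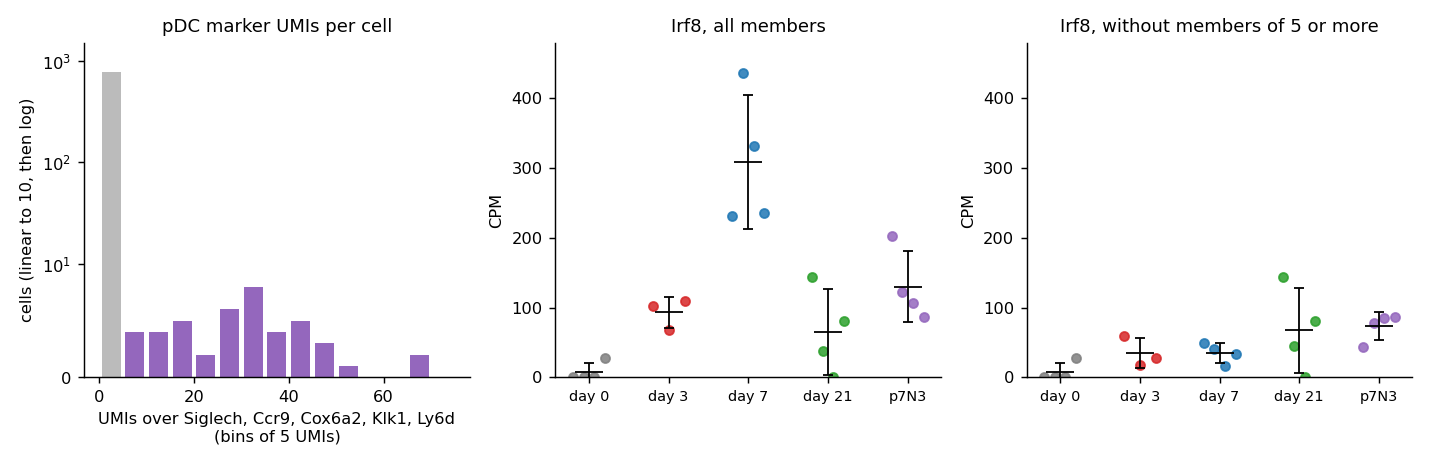
Left, number of Cd209a dendritic cells by their UMIs over 5 pDC genes in bins of 5 UMIs (cells, linear up to 10 and logarithmic above), with 773 cells under 5 in grey; centre and right, Irf8 CPM per library with the group mean and SD, for all members and without the 44 members of 5 or more such UMIs. The day 7 libraries reach 232 to 436 CPM in the centre and 16.4 to 49.1 CPM on the right.

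Whether the dendritic cells moved with their macrophage neighbours was tested as an interaction, with the library as a block, over cells of both kinds. Here 2268 of 9690 genes (23.4%) changed differently between day 3 and day 7 in the 2 kinds, 4 of them rule genes, and 1412 did without day 3 replicate 1. Changes given for the dendritic cells are those of the fit above, and differences come from the joint fit, so the values do not subtract exactly. Both kinds had to carry 5 H2-Ab1 UMIs. The same UMI limits took 1796 macrophages with a median of 16089.5 UMIs at day 3 and 1678 with a median of 5662.5 at day 7. Macrophage genes outside the rule summed to 5761 CPM in the day 3 cells and 28474 CPM in the day 7 cells, so a change of the cells gated and a change within macrophages cannot be told apart here. The 5 genes with the smallest p on the macrophage side were Apoe, Cd74, H2-Eb1, H2-Aa and the lysozyme gene Lyz2. Cd74 was higher in the macrophages gated at day 7 by 2.79, against 0.14 in the dendritic cells (difference -2.69 ± 0.10, edgeR adjusted p = 1.14e-12). Apoe, itself 1 of the macrophage genes in that sum, was higher there by 2.70, against -0.94 in the dendritic cells (difference -3.68 ± 0.11, adjusted p = 1.67e-13). On the other side stood Mt2, Cxcl14, Fstl1, Cxcl12 and Serpinh1, which had changes of -1.57 to -5.71 in macrophages, where stromal genes were also lower at day 7. The metallothionein gene Mt2 changed by 0.07 in the dendritic cells and -3.69 in macrophages. Mgl2 was higher at day 7 in both, by 4.62 in macrophages and 3.01 in the dendritic cells (difference -1.58, adjusted p = 3.21e-04). Cd209d changed by -0.06 in macrophages against 2.06 in the dendritic cells (difference 1.92, adjusted p = 0.0144), and Cebpb by 0.22 against -1.18. S100a8 was lower in both (-2.56 and -3.79), and the difference did not pass (adjusted p = 0.0678).

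The peptide arm asked whether activating CD47 alters cells at the wound. In the Cd209a dendritic cells 0 of 6946 genes passed between p7N3 and day 7 (0%) with edgeR, 471 had an unadjusted p under 0.05, and DESeq2 called 1 gene, Irf8. This comparison shares its day 7 libraries with the one above. Relative to macrophages, 0 of 8784 genes (0%) changed differently, with 430 at an unadjusted p under 0.05. The interval of the log2 change was -0.73 to 0.14 for Mgl2, -0.09 to 0.15 for Cd74, -0.27 to 0.12 for Cd47 and -0.36 to 0.22 for Tgfb1. Tgfb1 was at 220.1, 299, 216 and 254 CPM at day 7 and at 291, 204, 199 and 272 CPM under p7N3, and the groups overlapped. The last value of each group is from replicate 4, whose labels name C57 and LysmCre/Tgfb1fx/fx mice without saying which applied. Of 16 genes of the TGF beta and CD47 list 13 were tested and none passed (median -0.01, against -0.00 over all genes).

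Irf8 had the lowest p (-1.24 ± 0.23, edgeR adjusted p = 0.377; DESeq2 adjusted p = 0.0240; at equal depth -1.12, edgeR adjusted p = 0.0469), with every p7N3 library below every day 7 library. Without the pDC-marked members its change was 0.94 (edgeR adjusted p = 0.793). Without p7N3 replicate 1, the p7N3 library with the most marked members, 7 genes passed and were lower under p7N3, among them the pDC genes Siglech (-2.76), Ccr9 (-3.03) and Cox6a2 (-2.39), and Irf8 (-1.53). Siglech, a pDC surface lectin, was at 116, 172, 136 and 63.9 CPM at day 7 and 119, 24.9, 21.4 and 2.64 CPM under p7N3. Cd40, the receptor through which T cells license dendritic cells, was at 42.2, 50.5, 26.7 and 35.9 CPM at day 7 and 74.5, 70.3, 83.8 and 84.5 CPM under p7N3. All p7N3 libraries lay above all day 7 libraries, but the adjusted p was 0.495 (0.94 ± 0.22). It was singled out after its values were seen. Ccl17 was at 218, 52.5, 504 and 5.99 CPM at day 7 and 1.86, 5.86, 27.3 and 0 CPM under p7N3, with overlap (-4.37 ± 0.94, edgeR adjusted p = 0.495). It passed at equal depth with the lowered gate (-3.76, adjusted p = 0.00598), with a replicate block (-4.45, adjusted p = 1.39e-04) and without day 7 replicate 4 (-4.78, adjusted p = 0.0244), on a gene whose UMIs came mostly from 3 cells. At equal depth 10 genes passed in all, of which Ifitm3, Ifitm2, Crip1, Cldnd1 and Tmsb10 were higher under p7N3 and Ccl17, Irf8, Retnla, Ctsl and Col3a1 lower.

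**Figure D5:**
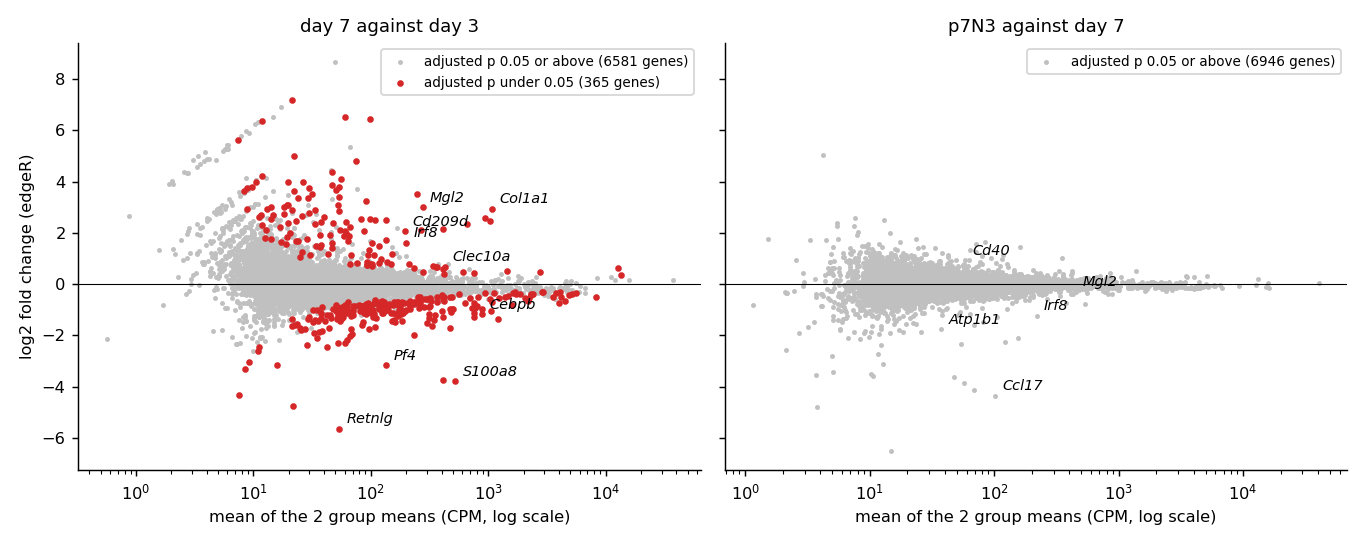
Log2 fold change (edgeR) against the mean of both group means (CPM, log scale) for 6946 genes in Cd209a dendritic cells, day 7 against day 3 on the left and p7N3 against day 7 on the right, with genes at an adjusted p under 0.05 in red. The left panel has 365 red points, with Mgl2 and Col1a1 above 0 and Pf4, S100a8 and Retnlg below, and the right panel has none.

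Day 0 and day 21 had too few members for the planned fit. With the minimum lowered to 4 members, chosen after seeing the data, 19 libraries and 5106 genes entered. Between day 3 and day 0, 376 genes passed (7.36%), 279 higher at day 3 (5.46%) and 97 lower (1.9%), 3 of them rule genes. The median of all genes was 0.25, so changes are read against that shift. The day 0 sums rest on 22 cells.

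Mgl2 was at 1113, 529.8, 1294 and 827 CPM at day 0, above every day 3 library (-3.85 ± 0.35 at day 3, edgeR adjusted p = 2.08e-07). Retnla, a secreted protein of alternatively activated myeloid cells, was at 1411, 2233, 1208 and 138 CPM at day 0 and had no UMI at day 3, so that its level over the group was at least 456-fold higher at day 0, with 3 UMIs over the group as the floor. In the opposite direction, Cxcl2 and S100a8 had no UMI at day 0, and over the group they were at least 36.3-fold and 51.0-fold higher at day 3. Ifitm1, an interferon-induced membrane protein, was at 109.7, 75.7, 0 and 496 CPM at day 0 and 4381, 4207 and 4388 CPM at day 3, without overlap (4.75 ± 0.66, adjusted p = 6.19e-05). The share of cells with an Ifitm1 UMI also went from 1.88% to 94.9% in stromal cells and from 0% to 94.3% in macrophages, and the part of free RNA in the dendritic cells' change was not tested. Of 8 cytokines tested 4 were higher at day 3 (median 2.29), as were 8 of 17 growth factor and cytokine receptors (1.41), 4 of 8 monocyte genes (2.13) and 3 of 3 neutrophil genes (8.06). The macrophage gene Cd163 was lower and Apoe, Fcgr1 and Csf1r were higher. In the members' sums, neutrophil genes together stood at 24.2 CPM at day 0 and 1880 CPM at day 3, and macrophage genes at 448 and 1397 CPM, and their part in these changes was not tested.

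At day 21, against day 7, 93 genes passed (1.82%), and against day 0, 55 passed (1.08%), from 30 cells at day 21. Members at day 21 were deeper, with a mean of library medians of 10622 UMIs against 5731 at day 7, and the part of depth was not tested. The translation-related gene Tpt1 was at 4636, 5043, 4186 and 5134 CPM at day 21 and 2424, 2047, 1743 and 2117 CPM at day 7, without overlap (1.30 ± 0.13, edgeR adjusted p = 1.15e-06). Ifitm1 was at 307, 56.6, 539 and 1996 CPM at day 21, below the 2493 to 3748 CPM at day 7 (-2.05 ± 0.49, adjusted p = 0.0234), with replicate 4 nearest. From day 7 to day 21 the share of cells with an Ifitm1 UMI also went from 20.8% to 7.51% in stromal cells (3.42% to 2.09% after thinning). In macrophages it went from 18.7% to 5.74% (9.36% to 1.83% after thinning), and the part of free RNA was not tested. Mgl2, at 518, 499.6, 777 and 628 CPM at day 21, did not pass against day 7 (0.37, adjusted p = 0.598) or day 0 (-0.45, adjusted p = 0.547). Against day 0, Col1a1, Col1a2 and Col3a1 were higher at day 21, and stromal genes summed to 17605 CPM in day 21 replicate 1 against 1273 to 2639 CPM in the other day 21 libraries. The cytokine Osm was higher than at day 0 (4.60 ± 1.10, adjusted p = 0.0393), on 1 UMI at day 0.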

How the data were processed

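Cells of 19 libraries were profiled with the 10x Genomics 3' assay. The authors deposited raw UMI counts per gene and barcode, with 27998 genes, made with Cell Ranger; the submitters' processing notes also name Seurat and, across libraries, the builds GRCh38 and mm10, whereas all gene identifiers are mouse. As in the study's methods, barcodes needed 500 genes and could hold 25% mitochondrial UMIs at most. Between 571 and 3668 cells were kept per library, with medians of 3414 to 12406 UMIs. Samples were grouped by their titles. The rule, the gene lists (28 lists, 386 genes, 381 matched by symbol) and the tests were chosen with earlier results of these data known.

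Members' counts were summed per library with at least 10 members and tested with edgeR 4.0.16 (R 4.3.3; quasi-likelihood test, TMM factors, filterByExpr), day 3, day 7, p7N3 and the 1 day 21 library with 10 members in 1 fit, with Benjamini-Hochberg adjustment and a threshold of 0.05. Shares were compared by exact two-sided permutation tests over libraries (scipy 1.17.1). The interaction with macrophages kept the library as a block. Other gates were MHC class II high macrophages (H2-Ab1 at least 5, C1q sum above 5), Ly6c2 monocytes, cDC1 and stromal cells. Intervals of log2 changes are normal intervals from the change and its SE, which are narrower than the quasi-likelihood test implies and can leave out 0 where that test does not. Doublets were kept; removing the 3.9% of cells with the highest Scrublet scores (scanpy 1.11.5) was an alternative, the share being the multiplet rate in the labels. Named genes were, per comparison, the 10 largest changes in each direction among genes past 0.05 whose groups did not overlap, with at least 50 CPM in the higher group and without rule, mitochondrial, ribosomal protein and unnamed genes; the 4 smallest adjusted p of each list; for the interaction the 5 smallest p in each direction; and the 15 largest ratios to macrophages. Coordinates are from GENCODE on GRCm38. The fit was tested on simulated counts. Alternatives were DESeq2 1.42.0, other factors and filters, a replicate block, other gates, equal depth, leaving out each library and, for p7N3 against day 7, replicates 1 to 3 only.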

Additional observations from a re-analysis of the deposited data

Results flagged for a closer look

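Among groups of 4 libraries, 1 library stood far from the other 3 in 18 of 121 sets examined in the Cd209a dendritic cells (the share of members, and the levels of 36 genes with at least 20 UMIs in the group). Each is given by the gap to its nearest neighbour divided by the whole range of the group, and chance alone sets about 1 in 20 such groups apart. Irf4, a cDC2 factor, was at 7.99 CPM in day 7 replicate 4 against 24.3 to 26.7 CPM (ratio 0.874). In day 7 replicate 3, Cebpb was low at 320.1 CPM against 624 to 677 CPM (0.851), S100a8 was high at 184 CPM (0.859) and Cox6a2 was high at 202 CPM (0.845). In day 7 replicate 1, Cxcl2 was high at 431 CPM (0.833).

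At day 21, replicate 1 was high for Ccl17 at 1248 CPM (ratio 1, all others at 0), Retnla at 864 CPM (1, all others at 0), Cxcl2 at 269 CPM (0.892) and Col1a1 at 3945 CPM (0.873). This library held 9 members. Apoe was high at 1781 CPM in day 21 replicate 2 (0.971), and Cd7 low at 151 CPM in day 21 replicate 3 (0.866). At day 0, replicate 2 with its 4 members was high for Cebpb at 1135 CPM (0.834), Il1b at 2346 CPM (0.862) and Tpt1 at 4389.6 CPM (0.839). Under p7N3, Ccr9 was high in replicate 1 at 101 CPM (0.869), Retnla in replicate 2 at 309 CPM (0.972), and Tnfrsf1a at 179 CPM (0.879) and Col1a1 at 3098 CPM (0.829) in replicate 4.

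For 10 genes the change from day 3 to day 7 differed between the Cd209a dendritic cells and the MHC class II high macrophages by the test of the difference (log2 change in dendritic cells minus that in macrophages, edgeR quasi-likelihood test). The difference was positive for Mt2 (3.69), Cxcl14 (3.91), Fstl1 (3.98), Cxcl12 (3.15) and Serpinh1 (3.55). It was negative for Apoe (-3.68), Cd74 (-2.69), H2-Eb1 (-2.86), H2-Aa (-2.72) and Lyz2 (-2.34). The macrophages gated at the 2 times were not alike, with macrophage genes at 5761 CPM at day 3 and 28474 CPM at day 7 and stromal genes at 13171 and 5359 CPM. No explanation was weighed.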

How the results depend on the processing

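Between day 3 and day 7, 365 genes passed; DESeq2 called 235, no filter on low counts gave 642, members with a Flt3 UMI 146, equal depth with a lowered gate 99 and a minimum of 4 members 212. Leaving out 1 library gave 163 to 556. Over the genes named for that comparison and all alternatives, 1110 values kept sign and side of the threshold, 249 kept the sign without passing, and 1 turned, Irf8 without pDC-marked members (-0.053); 38 of 71 such genes passed without each library. Between p7N3 and day 7, 0 genes passed; DESeq2 called 1, no filter on low counts 75, equal depth 10, and leaving out 1 library 0 to 7 (7 without p7N3 replicate 1, 1 without day 7 replicate 4). The difference from macrophages under p7N3 gave 54 genes without a filter on low counts, 1 with doublets removed and 0 to 2 with 1 library left out; from day 3 to day 7 it gave 1412 to 2328.

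Deviations of same-numbered libraries from their group means had correlations of -0.004 to 0.011 between day 3 and day 7. Between day 7 and p7N3 these were -0.056 to 0.150. Libraries of different numbers spanned -0.037 to 0.045 and -0.153 to 0.108. With 3 or 4 libraries in a group, these values cannot show whether the numbers paired the libraries. With a replicate block, 344 genes passed between day 3 and day 7 and 2 between p7N3 and day 7, Ccl17 and Acta2, and the paired exact permutation p of the shares was 0.25 (day 3 against day 0), 0.5 (day 7 against day 3), 0.125 (day 21 against day 7), 1 (day 21 against day 0) and 0.5 (p7N3 against day 7). Of these, 0.25 and 0.125 are the smallest values that 3 and 4 pairs allow.

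The share turned sign between day 3 and day 0 with cells carrying Ptprc as the denominator (-2.87 points), between day 7 and day 3 among members with a Flt3 UMI (-0.00121) and between day 21 and day 0 among the latter (0.0604). With 1 library left out the share differences were 1.01 to 1.56 (day 3 against day 0), 0.173 to 0.779 (day 7 against day 3), -2.0004 to -1.49 (day 21 against day 7), -0.180 to 0.0680 (day 21 against day 0) and 0.238 to 0.782 points (p7N3 against day 7). Causes were not tested. Libraries were not left out of the fit with a minimum of 4 members. The number of members limits day 0 and day 21 most, with 22 and 30.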

Other observations

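Genes that set the Cd209a dendritic cells apart from macrophages, as levels, were not alike in the other cells. Klrb1b, an inhibitory lectin-like receptor, was at 188 CPM in members, 134 CPM in cDC1 and 2.33 CPM in Ly6c2 monocytes, whereas Pkp3 was at 64.4 CPM in members, 84.6 CPM in cDC1 and 34.6 CPM in monocytes. The short-chain fatty acid receptor Ffar2 was at 119 CPM in members against 6.50 CPM in cDC1, 2.03 CPM in monocytes and 3.69 CPM in macrophages. These are means over libraries, given without a test.

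Of genes outside the text above, the scavenging and lipid genes Abcg1 (2.72 ± 0.50) and Lpl (2.39 ± 0.51) were higher at day 7 than at day 3 and Ctsd, a lysosomal protease, lower (-1.02). Of 20 lysosome and lipid genes tested 3 were higher and 2 lower, and over all genes tested 1.87% were higher and 3.38% lower. Of 20 glycolysis and hypoxia genes tested 3 were lower, Pgk1 (-1.38), Gpi1 and Pkm. Pgk1 and Gpi1 did not pass without day 3 replicate 1 or replicate 3 (edgeR adjusted p up to 0.0557 and 0.108), Pkm passed only without day 3 replicate 3, and Lpl did not pass without day 3 replicate 3 (0.0634).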
